A study of Mus musculus with 6 samples.

Results

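This account follows 10 genes of bone morphogenetic protein (BMP) signalling in mouse embryonic stem (ES) cells: the ligand gene Bmp4, the receptor genes Bmpr1a and Bmpr2, the target genes Id1, Id2, Id3 and Id4, and the feedback inhibitor genes Smad6, Smad7 and Bambi. They were picked by name, and each is read by whichever of its probe sets was brightest on average over the 6 arrays. All 10 were measured, of 18193 genes in all. RNA of 3 haploid and 3 diploid ES cell samples had been hybridised to Affymetrix mouse arrays, 1 array per sample. The haploid samples were the lines HAP1 at passage 24 and HAP2 at passage 21, both of F1 CBAxB6 background, and HTG1 at passage 11, labelled mixed transgenic; the sources used here do not name its transgene. Diploid controls were labelled male, with strain 129Sv for replicates 1 and 2 and strain 129 for replicate 3, and their titles give no line names. All 6 samples grew in 2i medium, in which the kinases MEK and GSK3 are inhibited, and RNA was taken on day 2 after passaging. Strain, sex chromosomes and ploidy differ together between the groups and cannot be told apart. Each p-value rests on the spread among the 3 arrays of either group, which for the diploid samples may not be separate lines.

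BMP4 is a secreted dimer that binds a complex of type I receptors, such as the kinase encoded by Bmpr1a, and type II receptors, such as that encoded by Bmpr2. The active receptors phosphorylate Smad1, Smad5 and Smad9, which enter the nucleus with Smad4 and turn on target genes. The Id genes are the classic early targets: Id proteins lack a DNA-binding region and hold E proteins and other helix-loop-helix factors in inactive dimers. Smad6, Smad7 and the decoy receptor Bambi are targets too, and dampen the pathway. In mouse ES cells grown without serum, BMP4 together with the cytokine LIF is known to support self-renewal through Id genes, while 2i medium holds the cells in the naive state without added BMP.

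Values are RMA log2 levels, which ran from 2.62 to 15.2, with array medians between 6.31 and 6.34. Marker genes matched the label of naive ES cells: all 12 listed genes were measured, and their mean levels lay at or above the 91.3 percentile of all genes. Of the 12, Pou5f1, Nanog and Klf4 were higher in the haploid samples at a limma adjusted p below 0.05, and none was lower. That is 25%, against 14.9% of all genes, and the median log2 difference (haploid minus diploid) was 0.33. The mean log2 level of the 12 was 12.77 to 12.88 in the diploid and 13.06 to 13.14 in the haploid samples, without overlap. Pou5f1, the core pluripotency factor, had a mean of 13.5 in the diploid and 13.9 in the haploid samples. In bulk RNA, fewer cells that express a gene and less RNA per cell cannot be told apart.

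The comparison asked whether Bmp4, its Id targets and the inhibitory Smads differ in one direction between haploid and diploid cells. They did not. Bmp4 was 5.02-fold and Id1 3.45-fold lower in the haploid samples, while Id2 was 3.53-fold, Id4 2.16-fold and Smad6 2.1-fold higher. Thus 3 of the 10 genes were called higher and 2 lower at a limma adjusted p below 0.05 over all genes. Of all genes 14.9% were called, 7.92% higher and 6.96% lower. The haploid and diploid values did not overlap for 6 of the 10, against 37.9% of all genes. As the genes were chosen with results of these data known, nothing is read from these shares. The median log2 difference (haploid minus diploid) was 0.24 over the 10 genes and -0.03 over all genes. Without diploid replicate 3 only Id2 was still called higher, and the counts over all genes fell from 1441 higher and 1266 lower to 571 and 399. With array medians aligned, the split over all genes was 1225 higher and 1680 lower, and the calls among the 10 genes were again 3 and 2. After a second quantile normalization the split was 1259 higher and 1407 lower, and the calls among the 10 genes were 2 and 2.

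**Figure D1:**
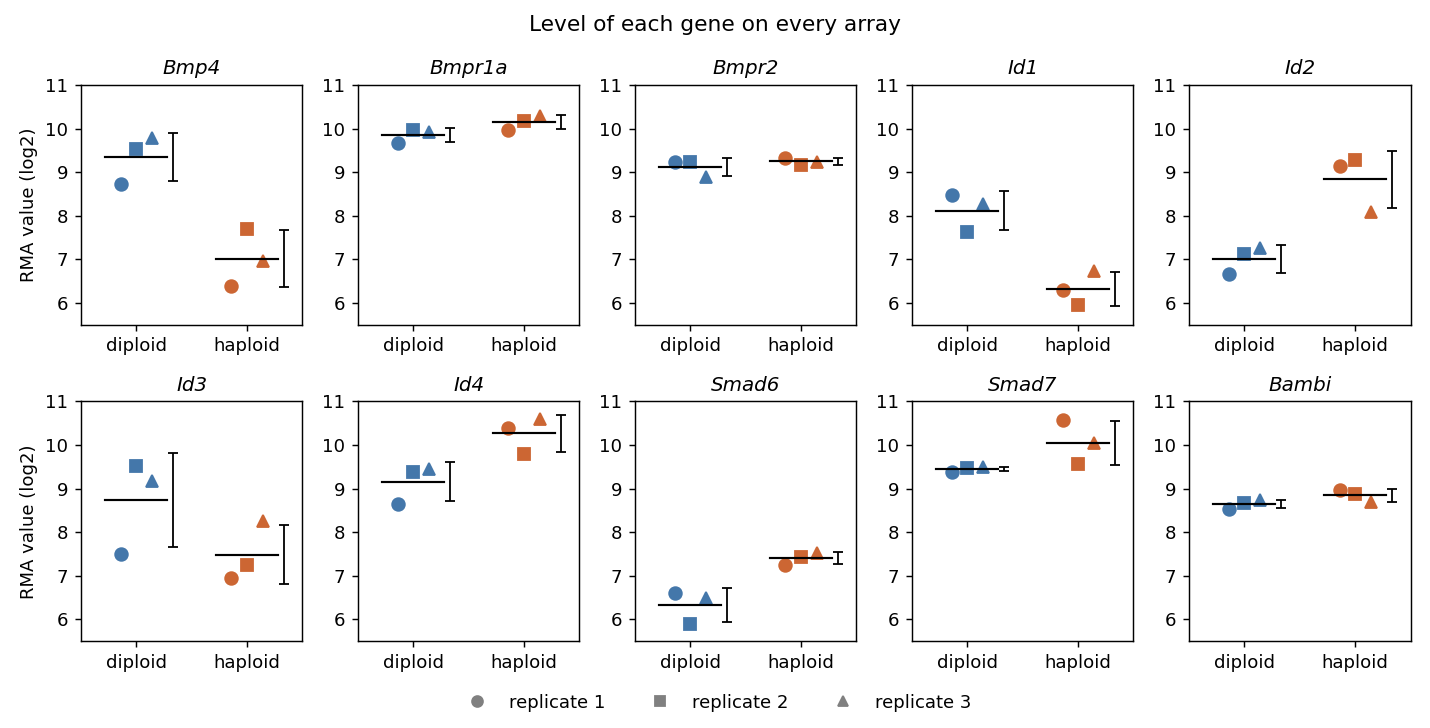
RMA value (log2, vertical axis) of the 10 genes on each of the 3 diploid (blue) and 3 haploid (orange) arrays. Symbols mark the replicate (haploid replicates 1, 2 and 3 are HAP1, HAP2 and HTG1), horizontal lines the group mean and bars the SD. Bmp4 and Id1 lie lower and Id2, Id4 and Smad6 higher in all haploid than in all diploid samples. Smad7, which was not called, also lies higher, with a gap of 0.07 between the nearest samples. Levels of different genes are not comparable because they come from different probes.

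Bmp4, on chromosome 14, was read by a single probe set. Its log2 level was 8.73, 9.53 and 9.78 in diploid replicates 1, 2 and 3, and 6.39, 7.70 and 6.97 in HAP1, HAP2 and HTG1. The groups did not overlap, and the highest haploid sample, HAP2, lay 1.03 under the lowest diploid one. Group means were 9.35 ± 0.55 (SD, n = 3) and 7.02 ± 0.66, and the difference of -2.33 ± 0.38 (SE) had a limma adjusted p of 0.0105. Bmp4 passed with any 1 array left out, with differences from -2.67 to -2.01 and a limma adjusted p of at most 0.0497.

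The receptor genes did not pass. Bmpr1a, also on chromosome 14, encodes the type I receptor for BMP4, and its log2 level was 9.67, 9.97 and 9.92 in the diploid replicates and 9.96, 10.2 and 10.3 in HAP1, HAP2 and HTG1. The groups overlapped, with a difference of 0.29 (limma adjusted p = 0.18) and a 95% interval from -0.02 to 0.60. Its 6 probe sets disagreed: their differences ran from -0.52 to 0.29, and 1 of them was called lower (limma adjusted p = 0.0300 over all 34945 probe sets). For the type II receptor gene Bmpr2, on chromosome 1, the log2 level was 9.23, 9.22 and 8.88 in the diploid and 9.33, 9.17 and 9.24 in the haploid samples. Its difference was 0.13 with a 95% interval from -0.16 to 0.42 (limma adjusted p = 0.507). Averaged over all their probe sets, Bmpr1a and Bmpr2 differed by -0.11 and -0.020.

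The Id genes divided into Id1 and Id3, which stood lower, and Id2 and Id4, which stood higher in the haploid samples. Id1, on chromosome 2, stood at 8.47, 7.62 and 8.26 (log2) in the diploid replicates and at 6.30, 5.95 and 6.73 in HAP1, HAP2 and HTG1. Every haploid value lay under every diploid one, and the difference of -1.79 ± 0.27 (SE, n = 3 per group) had a limma adjusted p of 0.00794. With any 1 array left out Id1 still passed, at differences from -2.04 to -1.60. Its only probe set has the suffix _a_at, which can match more than 1 transcript of a gene. Id3, on chromosome 4, had log2 levels of 7.51, 9.51 and 9.19 in the diploid replicates and 6.96, 7.24 and 8.25 in the haploid lines. Diploid replicate 1 lay far below the other diploid values and under HTG1, so the groups overlapped. The difference of -1.25 ± 0.56 (SE) did not pass (limma adjusted p = 0.178, 95% interval from -2.57 to 0.07). Without diploid replicate 1 the difference of Id3 was -1.86 and passed (limma adjusted p = 0.0332), and with array weights it was -1.68 (0.0357).

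Id2, on chromosome 12, rose from 6.66, 7.13 and 7.26 (log2) in the diploid replicates to 9.14, 9.27 and 8.09 in HAP1, HAP2 and HTG1. Both F1 lines lay more than 1 unit above HTG1, which was itself above all diploid samples. The difference was 1.82 ± 0.32 (SE, limma adjusted p = 0.0139), and the call held with any 1 array left out, at 1.60 to 2.19. Among its 3 probe sets the differences were 1.82, 2.84 and 1.28, all in one direction, and the dimmest did not pass (limma adjusted p = 0.0727 over all probe sets). Id4, on chromosome 13, stood at 8.64, 9.37 and 9.46 in the diploid replicates and at 10.4, 9.80 and 10.6 in the haploid lines. The groups did not overlap, but only 0.34 parted HAP2 from diploid replicate 3. Its difference of 1.11 ± 0.28 (SE) was near the threshold (limma adjusted p = 0.0397). Id4 did not pass when any 1 array other than HAP2 was left out (limma adjusted p from 0.0725 to 0.0964), after a second quantile normalization (0.0554) or when its 3 probe sets were averaged (0.067).

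Promoter windows from RefSeq (build GRCm38.p6; 250 bases before and 50 after each gene's start) were found for 7 of the 10 genes and used here; Id1 had no entry, and Smad7 and Bambi were not used. They were searched on both strands for GGCGCC, the core of a GC-rich BMP response element, for the Smad palindrome GTCTAGAC, and for the Smad-binding element GTCTG, read as CAGAC on the other strand. No match of one overlapped a match of another in these windows. The letters GGCGCC were found in 11.9% of all 32851 windows, the palindrome in 0.213% and GTCTG in 49.6%. The sequences upstream of Bmp4, of Id3 and of Id2 and Id4 are shown to set the ligand gene beside 2 target genes that were called and 1 that did not pass, and for Smad6 only the 30 bases around its match are shown. All are 5′ to 3′ on the gene's strand, with matches in capitals.
Bmp4, chr14:46390670-46390919, minus strand: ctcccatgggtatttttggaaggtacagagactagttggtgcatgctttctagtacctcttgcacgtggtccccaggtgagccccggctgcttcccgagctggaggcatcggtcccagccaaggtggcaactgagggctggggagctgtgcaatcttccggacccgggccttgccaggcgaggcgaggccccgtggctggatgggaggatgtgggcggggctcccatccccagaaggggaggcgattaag
Id3, chr4:136143572-136143821, plus strand: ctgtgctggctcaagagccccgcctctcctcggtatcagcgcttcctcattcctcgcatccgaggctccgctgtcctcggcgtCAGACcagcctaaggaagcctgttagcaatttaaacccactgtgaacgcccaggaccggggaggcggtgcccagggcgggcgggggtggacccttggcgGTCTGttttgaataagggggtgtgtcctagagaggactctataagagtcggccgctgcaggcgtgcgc
Id2, chr12:25096093-25096342, minus strand: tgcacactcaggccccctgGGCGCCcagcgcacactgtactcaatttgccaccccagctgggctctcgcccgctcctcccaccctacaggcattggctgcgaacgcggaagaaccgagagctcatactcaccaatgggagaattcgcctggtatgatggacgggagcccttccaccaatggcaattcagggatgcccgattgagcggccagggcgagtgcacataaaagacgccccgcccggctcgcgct
Id4, chr13:48260866-48261115, plus strand: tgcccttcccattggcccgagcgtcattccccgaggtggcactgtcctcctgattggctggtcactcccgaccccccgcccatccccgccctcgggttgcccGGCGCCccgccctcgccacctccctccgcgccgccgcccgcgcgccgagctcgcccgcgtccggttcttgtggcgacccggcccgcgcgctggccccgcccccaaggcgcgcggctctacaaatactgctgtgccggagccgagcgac
Smad6, chr9:64022056-64022085, minus strand: agcgccgcggagccgccaaagtGTCTAGAC
Id2 and Id4, both higher, each held 1 GGCGCC, starting at -231 and -148 from the gene's start (1 is the first transcribed base and there is no 0), and so did the uncalled Bmpr1a and Bmpr2. Id3 held GTCTG elements at -167 and -68 and no GGCGCC. The Smad6 window held the palindrome across its start, from -4 to 4. The window of Bmp4 held none of the 3 motifs. These matches describe letters in a short window and say nothing of binding.

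Of the inhibitors, Smad6 alone was called. Smad6, on chromosome 9, encodes an inhibitory Smad that acts mainly on the BMP branch, and had log2 levels of 6.62, 5.89 and 6.49 in the diploid replicates and 7.25, 7.44 and 7.52 in HAP1, HAP2 and HTG1. The haploid samples were close together and all above the diploid ones. The difference was 1.07 ± 0.20 (SE, n = 3 per group, limma adjusted p = 0.0156). It did not pass without diploid replicate 3 (limma adjusted p = 0.0501) or without HAP2 (0.0512). Smad7, on chromosome 18, inhibits both the BMP and the TGF-beta branch. Its log2 level was 9.39, 9.46 and 9.50 in the diploid replicates and 10.6, 9.56 and 10.04 in the haploid lines. The diploid samples nearly coincided, and HAP2 lay just above them. The difference of 0.60 ± 0.23 (SE) did not pass (limma adjusted p = 0.13, 95% interval from 0.05 to 1.16), but the value depended on single lines: without HAP2 it was 0.85 and passed (0.0394), and without HAP1 it was 0.35 (0.2). A further Smad7 probe set differed by 0.72 (limma adjusted p = 0.0401 over all probe sets). Its suffix, _x_at, marks possible matches to several transcripts, perhaps of other genes. Bambi, a decoy receptor without kinase activity, also lies on chromosome 18. It stood at 8.54, 8.67 and 8.73 in the diploid and 8.96, 8.89 and 8.69 in the haploid samples. HTG1 fell within the diploid range, and the difference of 0.20 did not pass (limma adjusted p = 0.271, 95% interval from -0.06 to 0.46).

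**Figure D2:**
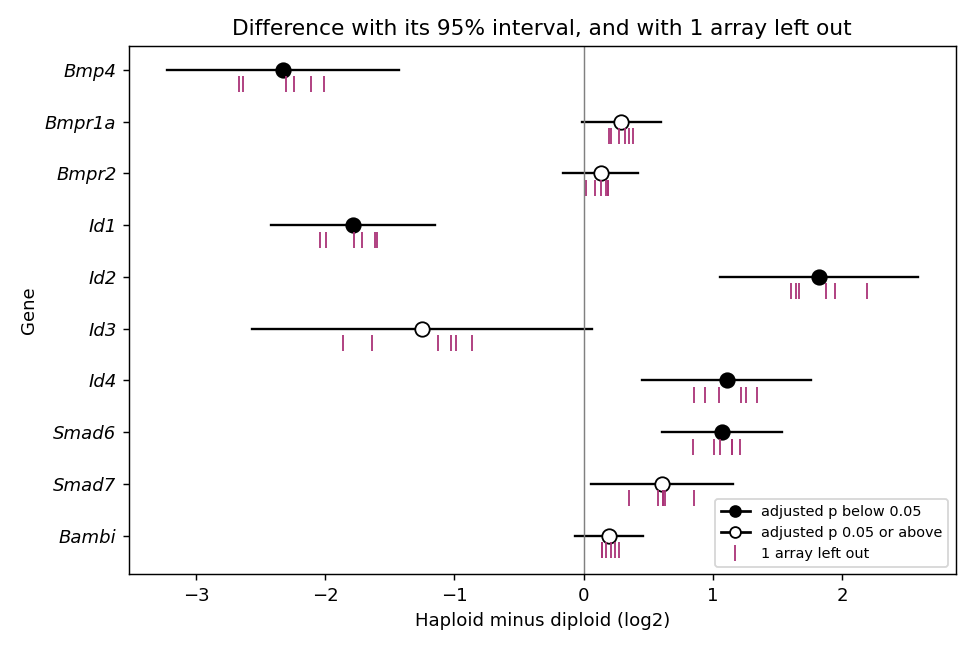
Haploid minus diploid difference (log2, horizontal axis) of each of the 10 genes, with its 95% interval from limma; filled circles passed an adjusted p of 0.05 over all genes. Purple ticks give the difference with each of the 6 arrays left out in turn: those of Bmp4 stay between -2.67 and -2.01 and those of Id3 spread from -1.86 to -0.86.

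**Figure D3:**
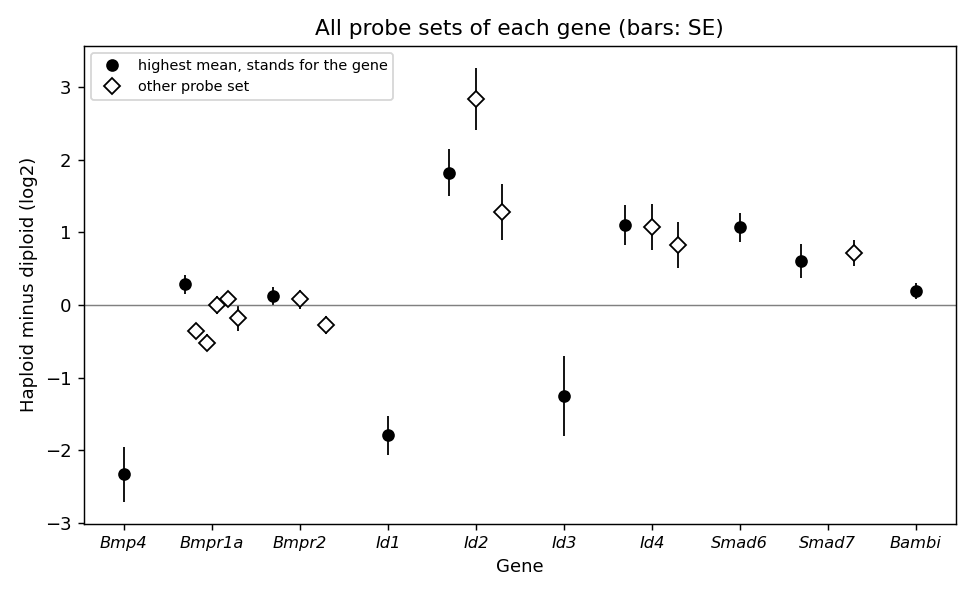
Haploid minus diploid difference (log2, vertical axis) of every probe set of the 10 genes, with its SE; filled circles stand for the gene in the comparison and open diamonds are its other probe sets. The 3 probe sets of Id2, the 3 of Id4 and both of Smad7 lie above 0, while the 6 of Bmpr1a lie on both sides of it.

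Samples of a group also differed among themselves, and the genes did not do so in step. Among the diploid samples, replicate 1 had the lowest Bmp4, Bmpr1a, Id2, Id3, Id4, Smad7 and Bambi but the highest Bmpr2, Id1 and Smad6. Among the haploid lines, HTG1 had the highest Bmpr1a, Id1, Id3, Id4 and Smad6 and the lowest Id2 and Bambi, whereas Bmp4 was lowest in HAP1. HTG1 was set against the mean of HAP1 and HAP2 with limma on all 6 arrays, which assumes that the lone HTG1 sample varies like the others. In limma 0 of the 10 genes passed, 1 of them (Id2) had an unadjusted p under 0.05, and 0.374% of all genes passed. The differences farthest from 0 were 1.15 ± 0.76 (SE) for Id3 (limma adjusted p = 0.779) and -1.12 ± 0.26 for Id2 (adjusted p = 0.237). Bmp4 differed by -0.07 ± 0.61 (limma adjusted p = 0.998).

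Beyond these genes, a list of 68 symbols of BMP pathway genes was read by role, of which 62 were measured; Hfe2, an older name of the measured Hjv, was among the others. In this list 7 genes rose and 2 fell, or 14.5% of those measured, which is near the 14.9% called among all genes, and the median log2 difference was -0.03, the same to 2 decimals as over all genes. The counts were 3 higher and 1 lower without diploid replicate 3, and 4 higher and 0 lower without diploid replicate 2. Without HAP2 they were 4 and 2, and without diploid replicate 1 they were 7 and 4.

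Among 10 other measured ligand genes 2 rose and none fell, or 20% called against 14.9% of all genes. Bmp7, which encodes a ligand that signals through the same Smads, stood at 7.92, 7.49 and 7.13 (log2) in the diploid replicates and at 8.41, 9.01 and 8.48 in the haploid lines. All haploid samples were above all diploid ones, the reverse of Bmp4, with a difference of 1.12 ± 0.24 (SE, limma adjusted p = 0.0243). Bmp7 missed the threshold when diploid replicate 2, diploid replicate 3 or HAP2 was left out (limma adjusted p from 0.0641 to 0.0811). Bmp6 differed by 0.44 (limma adjusted p = 0.0293) and did not pass with any 1 array left out (0.0509 to 0.0988). Bmp2, the closest relative of Bmp4, was dim, with group means of 4.20 and 3.97, under the lowest lower quartile of the arrays (4.80), and differed by -0.23 (limma adjusted p = 0.412).

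Of 9 other receptor and co-receptor genes 1 rose and 1 fell, or 22.2% called against 14.9% of all genes. Eng, which encodes the co-receptor endoglin, stood at 9.27, 9.28 and 9.38 in the diploid and 9.68, 9.88 and 9.96 in the haploid samples. The difference of 0.53 between the group means exceeded the spread within both groups (limma adjusted p = 0.0195), and the nearest samples lay 0.30 apart. Eng missed the threshold when diploid replicate 2, diploid replicate 3 or HAP2 was left out (limma adjusted p from 0.0609 to 0.0708). Bmpr1b, a second type I receptor gene, stood at 5.23, 5.91 and 5.22 in the diploid replicates and fell to 4.65, 4.01 and 4.13 in the haploid lines, levels under 4.80. The difference was -1.19 (limma adjusted p = 0.0209), its size is uncertain at such dim levels, averaging its 3 probe sets gave -0.53 (0.0402), and the call was lost on leaving out diploid replicate 2, diploid replicate 3, HAP2 or HTG1 (0.0506 to 0.0657).

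In limma 0 of the 4 signalling Smads passed, and 0 had an unadjusted p under 0.05. Smad4, the common partner, differed by 0.28 (limma adjusted p = 0.164, 95% interval from -0.0030 to 0.57), or by -0.079 when its probe sets were averaged. Smad1 differed by -0.24 (limma adjusted p = 0.312) and Smad5 by 0.08 (0.717).

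Among 15 measured extracellular antagonists 1 fell and none rose, or 6.67% called against 14.9% of all genes. Of the 15, 3 had a difference above 0, against 8336 of all 18193 genes. Chrd encodes chordin, which binds BMPs and keeps them from their receptors. Its log2 level was 7.51, 7.65 and 7.44 in the diploid replicates and 6.72, 7.06 and 6.76 in HAP1, HAP2 and HTG1. The groups did not overlap, and Chrd fell by 0.69 on the log2 scale (limma adjusted p = 0.0145; 0.0579 without diploid replicate 2). Nog, which encodes the antagonist noggin, differed by -0.34 (limma adjusted p = 0.184).

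Of 11 intracellular regulators 9.09% were called, against 14.9% of all genes. Only Tob2, from a family of antiproliferative proteins that can bind Smads, was called, with a difference of 0.72 (limma adjusted p = 0.01). That call rests on a probe set with the suffix _x_at, which marks possible matches to several transcripts, perhaps of other genes. Without probe sets named _x_at, _s_at or _a_at, Tob2 differed by -0.42 (limma adjusted p = 0.0525), and the average of its 5 probe sets differed by 0.14 (0.365).

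Among 10 other known BMP targets 3 rose and none fell: Dusp9, Gata3 and Gata2. That is 30% called against 14.9% of all genes, with 6 of the 10 above 0 and a median log2 difference of 0.05. Gata3, a transcription factor gene of trophoblast and other lineages, stood at 4.46, 5.22 and 4.74 in the diploid replicates and 6.26, 5.72 and 6.63 in the haploid lines. Its lowest haploid value was 0.50 above the highest diploid one, and the difference was 1.40 ± 0.27 (SE, limma adjusted p = 0.0185; 0.0765 without diploid replicate 3). Diploid replicates 1 and 3 lay under 4.80, and the size of the difference is uncertain at such dim levels. Dusp9, an X-linked ERK phosphatase gene known to be induced by BMP4 in ES cells, differed by 2.72, and by 2.35 with the median shift of the X chromosome subtracted. Msx1, Msx2 and Hey1 differed by -0.24, -0.07 and 0.32 and did not pass (limma adjusted p = 0.211, 0.728 and 0.108). In limma 0 of the 3 E protein genes, whose products Id proteins bind, passed, and 2 had an unadjusted p under 0.05: Tcf3 differed by -0.17, Tcf4 by -0.40 and Tcf12 by 0.53 (limma adjusted p = 0.261, 0.126 and 0.0799), and Tcf3 turned to 0.037 when its probe sets were averaged.

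**Figure D4:**
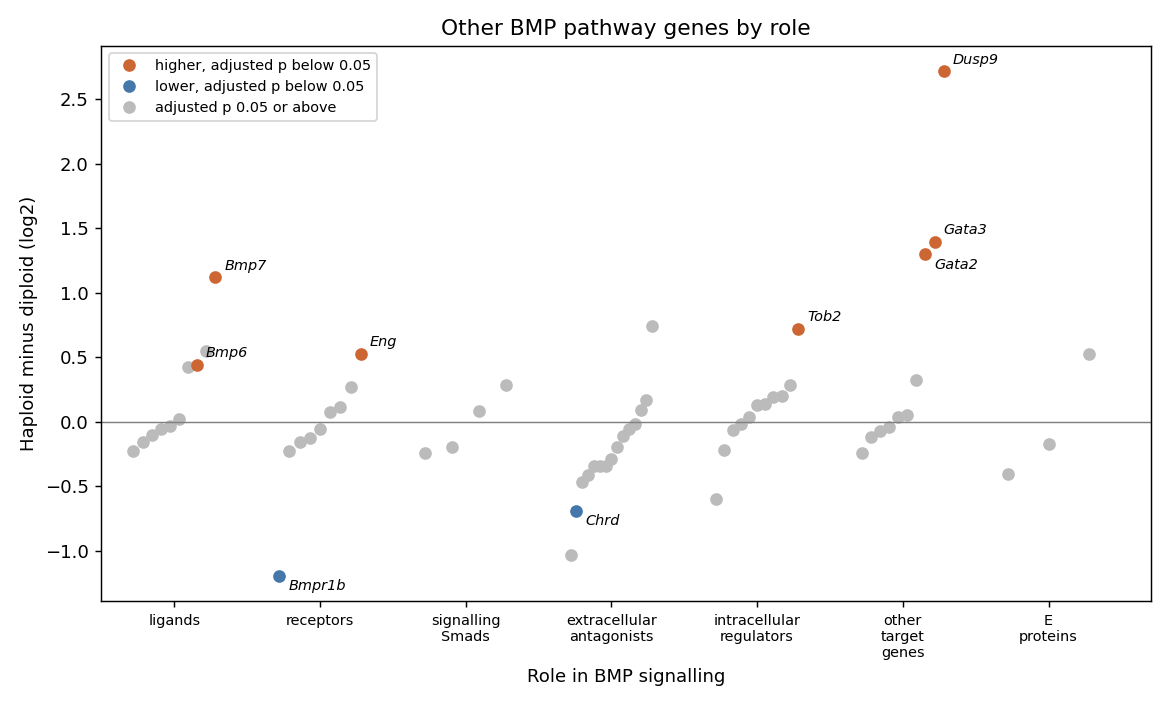
Haploid minus diploid difference (log2, vertical axis) of 62 other BMP pathway genes, 1 point per gene, by role; coloured and named points passed a limma adjusted p of 0.05 over all genes. Bmp7, Bmp6, Eng, Tob2, Gata2, Gata3 and Dusp9 lie above 0, Bmpr1b and Chrd below it, and no signalling Smad or E protein gene passed.

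Markers of other cell types were read beside these results. All 12 fibroblast markers were measured: 3 were called lower and 1 higher in the haploid samples, or 33.3% against 14.9% of all genes. Of the 12, 9 had an unadjusted limma p under 0.05, against 5672 of all 18193 genes, and the median difference was -0.72. The 9 included Fbln1, which was higher, and the dim Lum. The mean log2 level of the 12 markers was 6.74 to 7.48 in the diploid and 6.02 to 6.16 in the haploid samples, so the groups did not overlap. Col1a2, a chain of type I collagen, stood at 9.34, 8.41 and 8.38 (log2) in the diploid and 6.36, 5.73 and 6.17 in the haploid samples. It thus moved with Bmp4 and Id1 between the groups, as did Col5a1 (-1.16) and Acta2 (-2.04). Within the diploid samples, all of the 12 markers but Col1a1, Col5a1 and Fbln1 were highest in replicate 1, among them Col1a2, Acta2 and Col3a1 (8.002, 5.17 and 4.90). Col1a1 and Fbln1 were lowest in replicate 1, and Col5a1 was highest in replicate 2. In replicate 1 Id1 was highest too, but Bmp4 and Id3 were lowest. The fibroblast marker Thy1 had means of 6.79 and 6.75, Lum and Fap lay under 4.80 in both groups, and Fbln1 was higher by 1.06. The part of these markers in the Bmp4 and Id1 differences was not tested.

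Primitive endoderm markers had 0 of 10 genes called in limma and 1 with an unadjusted p under 0.05, with a mean log2 level of 6.19 to 6.40 in the diploid and 6.14 to 6.34 in the haploid samples. Of 10 trophoblast markers Gata3 was higher and the keratin genes Krt8 and Krt18 lower, with mean levels of 7.21 to 7.44 and 7.01 to 7.33, while Cdx2 and Elf5 differed by 0.05 and -0.04. Of 9 measured mesoderm markers Gata2 was higher and Tbx6 lower, the median difference was -0.06, and 4 of the 9 had a difference above 0; the mean levels were 6.42 to 6.46 and 6.51 to 6.60. Of 7 neural markers Sox1 was lower, with mean levels of 6.64 to 7.04 and 6.56 to 6.67. Gata2 and Gata3 thus count both as BMP targets and as lineage markers here, and the part of these lineages in the results was not tested.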

How the data were processed

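RNA of 6 samples was hybridised to Affymetrix mouse arrays. The deposited table holds log2 values per probe set, which were obtained by RMA according to the authors (per the submitters' processing notes); software, version and settings are not given in the sources used here. RMA sets all arrays to one distribution, so differences are relative to the bulk of genes, and it compresses those of dim genes. Of 45101 probe sets, 64 controls were left out, and 34945 had 1 gene symbol in the platform annotation, 932 several and 9160 none; the last 2 kinds were not named. A gene was read by its probe set with the highest mean over the 6 arrays (18193 genes). Groups came from the labels and were compared by the functions lmFit and eBayes of limma 3.58.1 under R 4.3.3 (two-sided, no covariate, no filter), with Benjamini-Hochberg adjustment over all genes and a threshold of 0.05; every adjusted p is from limma. SE is the moderated standard error. The fit was tested on simulated data. No batch is named in the sources, and precision is limited by having 6 arrays.

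The 10 genes and all lists were chosen with earlier results of these data known. Genes named were the 10, up to 2 called genes per direction of each pathway list (the gene with the highest mean where none was called), and the 3 genes most like Bmp4 and like Id1 over the 6 arrays; others named, such as Gata2, Bmp2, Nog, Smad1, Smad5, Tcf4, Tcf12, Msx1, Msx2, Hey1 and the lineage markers, were chosen after their values were seen. Alternatives were a second quantile normalization, aligned medians, subtraction of chromosome shifts, genes above the median level, other choices of probe set, trend and robust settings, array weights, and omission of each array.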

Additional observations from a re-analysis of the deposited data

How the results depend on the processing

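Bmp4 and Id1 passed under each alternative that could be run for them; Id1 dropped out of the fit limited to brighter genes (mean above the median of all) and of the fit without probe sets named _x_at, _s_at or _a_at, because it was then not tested. Id2 passed under all but the latter (1.28, limma adjusted p = 0.0732). Among the 10 genes, the counts called were 2 higher and 1 lower with brighter genes alone or without those probe sets, where fewer genes were tested. Taking every probe set on its own gave 5 higher and 3 lower probe sets of the 10 genes, 15 higher of the pathway list, and 2459 higher and 2228 lower in all, since it counts probe sets and not genes. In the pathway list, the number lower was 5 with array medians aligned, 4 with array weights and 1 among brighter genes, and the cause was not tested. The number higher was 4 without the named probe sets: Bmp7, Bmp6, Gata3 and Dusp9. Eng, Gata2 and Tob2 had been read by such probe sets, and Tob2 turned to -0.42. With 1 array left out, the 10 genes gave 1 to 3 higher and 2 to 3 lower, the pathway list 3 to 7 higher and 0 to 4 lower, and all genes 571 to 1395 higher and 399 to 1082 lower.

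Directions turned for Bmpr1a (-0.11), Bmpr2 (-0.020), Smad4 (-0.079), Tcf3 (0.037) and Herc6 (0.27) when probe sets of a gene were averaged, and for Tob2 (-0.42) and Herc6 (0.48) without the named probe sets. In the contrast of HTG1 with the other haploid lines, Bmpr2 (0.0063) and Smad7 (0.026) turned when probe sets were averaged. No paired analysis was possible because the haploid titles carry line names and no replicate number that links them to a diploid sample.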

Other observations

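Genes with a mean above the median of all genes were ranked by how closely their values followed Bmp4 and Id1 over the 6 arrays, as a description with no test. The arrays fall into the 2 groups compared and share one normalization. The closest to Bmp4 among 9095 genes were Herc6 (Pearson's r = 0.993), the transcription factor gene Sp3 (0.992) and Hmgxb4 (0.99), and 125 genes had an r above 0.95. Herc6, Sp3 and Hmgxb4 differed by -0.88, -0.32 and -0.81 (log2, haploid minus diploid), each far less than Bmp4. Sp3 did not pass (limma adjusted p = 0.0886), and Herc6 turned to 0.27 when its probe sets were averaged. Herc6, Sp3 and, among the genes closest to Id1, Nek8 rested on probe sets with the suffix _a_at, which can match more than 1 transcript of a gene. The closest to Id1 among 9096 genes were Nop2 (r = 0.996), Exo5 (0.994) and the kinase gene Nek8 (0.994), with differences of -0.23, -0.18 and -0.50. Nop2 and Exo5 did not pass (limma adjusted p = 0.135 and 0.21), and 140 genes had an r above 0.95. Without probe sets named _x_at, _s_at or _a_at, Nek8 differed by -0.40 (limma adjusted p = 0.235) and Herc6 turned to 0.48 (0.472).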
